A study of Mus musculus with 4 samples.

Results

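Fas (CD95) and 9 other receptors of the TNF receptor superfamily were followed in RNA-seq profiles of the mouse mammary carcinoma line 4T1. The 10 genes, Fas, Tnfrsf1a, Tnfrsf10b, Tnfrsf21, Tnfrsf1b, Ltbr, Tnfrsf12a, Cd40, Tnfrsf22 and Tnfrsf23, were chosen by symbol out of 24411 genes in the deposited tables, and each symbol was found in all 4 libraries. Values are TPM, transcript abundance scaled for transcript length and for the library, so levels of different genes can be compared within a library. The study asked which transcripts differ in tumour cells whose CD95 gene was edited. It has 2 control libraries (genotype control) and 2 libraries with the genotype CD95ko. Per the labels' protocols, RNA came from a control line, a line that carries the lentiviral Cas9 with blasticidin resistance, and 2 edited lines named FAS54 and FAS69, and the titles leave unclear which control library is which. Each edited line started from a single sorted Cas9-expressing cell transfected with a pair of guide RNAs, and its deletion was checked by genomic PCR. Each CD95ko library is therefore 1 clone, and a difference between clones that arose before or during cloning cannot be told apart from an effect of the edit. Nothing in the labels says that the libraries of a group are repeat cultures, so p-values measure the spread between these lines.

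Receptors of this superfamily bind trimeric TNF-related ligands through cysteine-rich repeats outside the cell. Those with a death domain inside the cell can recruit adaptors such as FADD or TRADD and start caspase-8 activation or NF-κB signalling, those without one bind TRAF proteins and mainly activate NF-κB and stress kinases, and decoy receptors bind ligand with no signalling domain. In carcinoma cells CD95 is known both for triggering apoptosis when bound by Fas ligand and for signalling that does not kill.

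The edit was aimed at the last exon of Fas, which encodes most of the death domain. The guides are shown because they define the edit, with the PAM, the bases next to the target that Cas9 requires, in capitals.
Guide 1: gccgggttcacatctgcgctAGG
Guide 2: cttgaggaatctgatgaccgTGG
Neither 20-base target was found on either strand of the 141767 transcripts of GENCODE M21, and no genomic position was assigned to them. The position of the guides relative to exon 9 was therefore not checked here. Fas lies at chr19:34290666-34327772 on the forward strand of GRCm38, the assembly of the mm10 build named in the submitters' processing notes. In its full-length transcript exon 9 has 780 of 1481 nucleotides, or 52.7%, and 329 of the 981 coding nucleotides, or 33.5%. The start of the targeted exon is shown after the last 20 bases of exon 8, with 280 coding bases of exon 9 (chr19:34326993-34327272) in capitals.
Fas exon 8 to exon 9: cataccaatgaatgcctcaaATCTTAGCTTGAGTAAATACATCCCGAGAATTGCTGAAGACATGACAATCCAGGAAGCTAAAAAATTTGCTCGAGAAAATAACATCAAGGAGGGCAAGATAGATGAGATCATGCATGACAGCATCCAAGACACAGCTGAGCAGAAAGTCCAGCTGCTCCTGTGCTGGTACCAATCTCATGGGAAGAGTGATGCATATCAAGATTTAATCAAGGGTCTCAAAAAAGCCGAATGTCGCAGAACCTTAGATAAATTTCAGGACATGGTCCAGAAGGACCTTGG

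**Figure D1:**
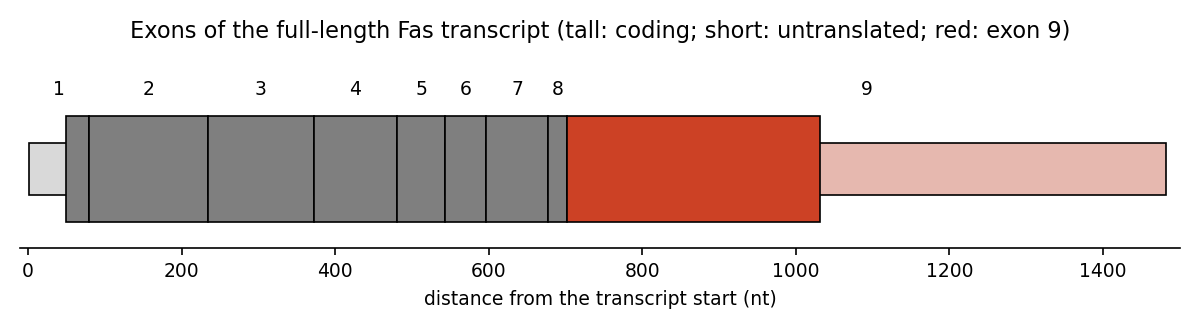
Exons 1 to 9 of the full-length Fas transcript of GENCODE M21, drawn to scale from the transcript start in nucleotides, with coding parts tall, untranslated parts short and exon 9 in red. Exon 9 takes up 780 of the 1481 nucleotides, so a gene-level TPM combines reads from the targeted exon with reads from the 8 exons before it.

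The libraries held between 11193 and 12010 genes above 0, and depth is unknown from TPM. The 5 epithelial markers Krt8, Krt18, Krt19, Epcam and Cdh1 summed to 2770 and 2852 TPM in the controls and to 4948 and 8560 TPM in the CD95ko libraries. All 5 were higher without overlap between the groups, as 29.2% of tested genes were. Krt8, Krt18, Krt19 and Epcam had an unadjusted limma p under 0.05, as 9.25% of tested genes had with higher and 5.68% with lower values, and none of the 5 passed after adjustment. All 5 leukocyte and all 3 endothelial markers were listed at 0 in the 4 libraries, and the 4 fibroblast markers summed to between 0.97 and 4.52 TPM. The 25 interferon-stimulated genes summed to 2282 TPM in control 1 and to 626 TPM in control 2, against 767 and 756 TPM in the CD95ko libraries, so control 1 stood apart. Of the 24 tested, Isg15, Ifit2 and Ifit3 had an unadjusted p under 0.05 with a lower mean in the CD95ko libraries, beside the same 5.68% of tested genes. None of the 3 passed after adjustment (limma adjusted p from 0.197 to 0.318), and Ifit3 overlapped between the groups. The part of the epithelial and interferon genes in the receptor values was not tested.

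None of the 10 receptors passed a limma adjusted p of 0.05 between the groups, while 6 of 11167 tested genes did (0.0537%). Without CD95ko 1 that number was 1034 genes and without CD95ko 2 it was 194, while it was 0 without either control. All 10 were among the tested genes, which had at least 1 TPM in at least 2 libraries. At an unadjusted p under 0.05 there were 2 receptors, Tnfrsf1b higher and Tnfrsf12a lower in the CD95ko libraries. That is 1 of 10 in each direction, beside 9.25% of tested genes higher and 5.68% lower. Quantile normalization shifted the median log2 difference of all tested genes from 0.13 to 0.00. With it these shares were 8.66% and 8.01% and the receptors were again 1 higher and 1 lower. A fit with 1 library left out takes its spread from the group that stays whole, so its p-values do not measure the spread in the other group. With either control left out, 0 receptors had an unadjusted limma p under 0.05, beside 8.33% of tested genes without control 1 and 4.2% without control 2, and without CD95ko 1 Tnfrsf1b and Tnfrsf12a passed the adjusted threshold. The CD95ko and control values did not overlap for 4 receptors: Tnfrsf1b, Tnfrsf10b and Tnfrsf23 were higher and Tnfrsf12a was lower. Among tested genes 29.2% were higher without overlap and 18.3% lower, so 3 and 1 of 10 lie near the background. No receptor was over 2-fold apart on the log2(TPM + 1) scale in all 4 pairs of a CD95ko with a control library, as 5.49% of tested genes were. The median log2 difference was 0.20 over the 10 receptors and 0.13 over all tested genes.

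**Figure D2:**
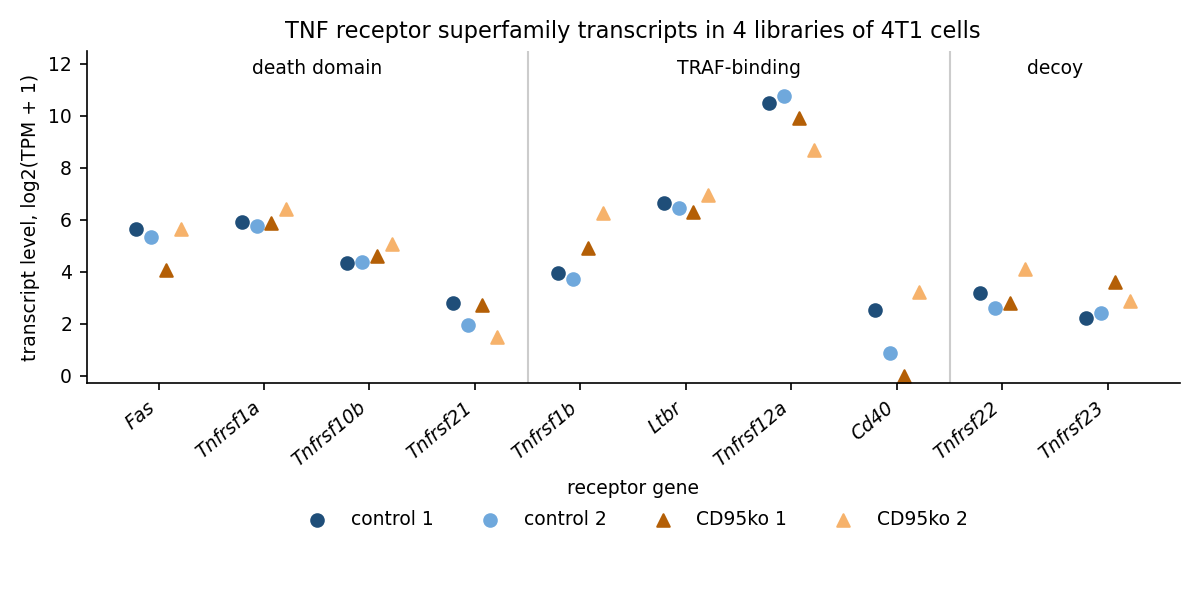
Level of each receptor transcript as log2(TPM + 1) in the 4 libraries, with circles for the controls and triangles for the CD95ko libraries, grouped by death domain, TRAF-binding and decoy receptors. Tnfrsf12a stands highest in every library, and Fas is low in CD95ko 1 alone, at 15.8 TPM.

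Among the death domain receptors, Fas itself was low in 1 edited library and at the control level in the other. It was at 49.4 TPM in control 1, 39.2 TPM in control 2, 15.8 TPM in the library labelled CD95ko 1 and 49.5 TPM in the library labelled CD95ko 2. The library labelled CD95ko 2 thus lay at the level of control 1. The library labelled CD95ko 1 was at 35.6% of the control mean. Between the groups Fas overlapped, with a log2 difference of -0.63 ± 0.54 SE (limma unadjusted p = 0.272, adjusted p = 0.615). A gene-level TPM combines reads from the targeted exon with reads from the exons before it. Such a value cannot show whether the targeted exon is missing from the transcript, and this was not tested. Per the protocols, the deletion in each edited line was checked by genomic PCR. Every direction given here for a CD95ko library therefore refers to its label. In bulk RNA, less transcript per cell and fewer cells with the transcript cannot be told apart. The log2 difference of the library labelled CD95ko 1 from both controls was -1.42 ± 0.52 SE (limma unadjusted p = 0.0124, adjusted p = 0.215). In that fit 1.74% of tested genes passed an adjusted p of 0.05, and none of the 10 receptors did. At an unadjusted p under 0.05 there were 3 of 10 receptors, Fas, Tnfrsf12a and Cd40, beside 12.2% of tested genes. For the library labelled CD95ko 2 the Fas difference was 0.16 ± 0.46 SE (limma adjusted p = 0.869). Each of these fits has a single edited library, which is assumed to vary as the controls do. Fas transcript was 1.59 ± 0.57 SE higher on the log2 scale in the library labelled CD95ko 2 than in the library labelled CD95ko 1 (limma unadjusted p = 0.0136, adjusted p = 0.21), and 1.98% of tested genes passed an adjusted p of 0.05 in that comparison.

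Tnfrsf1a (chr6:125349362-125362484) encodes TNFR1, the widely expressed death domain receptor for TNF. Its level was 58.4 and 53.5 TPM in the controls and 57.0 and 84.7 TPM in the CD95ko libraries, so the library labelled CD95ko 2 was highest and the other 3 lay close together (log2 difference between the groups 0.31 ± 0.36 SE, limma adjusted p = 0.725). Tnfrsf10b (chr14:69767472-69784411) encodes the mouse receptor for TRAIL. Its level was 19.2 TPM in control 1, 19.8 TPM in control 2, 23.4 TPM in CD95ko 1 and 32.2 TPM in CD95ko 2. Both CD95ko libraries lay above both controls, by 0.23 to 0.72 on the log2 scale over the 4 pairs (0.48 ± 0.42 SE between the groups, limma adjusted p = 0.631). In GENCODE M21, 14.5% of the 25-base stretches of Tnfrsf10b transcripts also occur in other genes. Tnfrsf21 (chr17:43016555-43089189) encodes DR6, a death domain receptor. It was weakly expressed, at 5.89 and 2.87 TPM in the controls and at 5.63 and 1.81 TPM in the CD95ko libraries, with 1 high and 1 low library in each group (log2 difference -0.26 ± 0.69 SE, limma adjusted p = 0.893).

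The balance between Fas and the other death domain receptors also differed from library to library. The ratio of Fas to Tnfrsf1a was 0.845 and 0.733 in the controls, 0.276 in CD95ko 1 and 0.584 in CD95ko 2. Tnfrsf10b stood at 0.388 and 0.504 times Fas in the controls, at 1.48 times Fas in CD95ko 1 and at 0.651 times Fas in CD95ko 2. CD95ko 1 was thus the single library with more Tnfrsf10b than Fas transcript. Summed over the 4 death domain receptors, the level was 133 and 115 TPM in the controls and 102 and 168 TPM in the CD95ko libraries, so the controls lay between the 2 clones.

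The TRAF-binding receptors held the 2 members with the smallest p-values. Tnfrsf1b (chr4:145213463-145246870) encodes TNFR2, which binds TNF, has no death domain and recruits TRAF2. Its level was 14.3 TPM in control 1, 12.3 TPM in control 2, 29.1 TPM in CD95ko 1 and 76.0 TPM in CD95ko 2. The 2 controls were close to each other, both CD95ko libraries were above them, and CD95ko 2 stood well above CD95ko 1. The group means were 13.3 ± 1.42 TPM and 52.5 ± 33.2 TPM (SD, n = 2 in each). The log2 difference was 1.75 ± 0.52 SE, higher in 4 of 4 pairs, and did not pass over all genes (limma unadjusted p = 0.00838, adjusted p = 0.191).

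Set against both controls one clone at a time, Tnfrsf1b passed for 1 of them. It was 5.7 times the control mean in CD95ko 2, where it rose by 2.43 ± 0.56 SE on the log2 scale (limma adjusted p = 0.0112). In the same fit 9.26% of tested genes passed, and 2 of the 10 receptors did. Those 2 were also the receptors at an unadjusted p under 0.05, beside 24.3% of tested genes. In CD95ko 1 it was 2.18 times the control mean, with a log2 difference of 1.07 ± 0.63 SE (limma adjusted p = 0.54). The difference between the clones was 1.36 ± 0.63 SE (limma unadjusted p = 0.0473, adjusted p = 0.393). The ratio of Tnfrsf1b to Tnfrsf1a, the 2 TNF receptors, was 0.245 and 0.23 in the controls, 0.509 in CD95ko 1 and 0.896 in CD95ko 2.

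Tnfrsf12a (chr17:23675445-23677468) encodes Fn14, the small receptor for the cytokine TWEAK, and was the most abundant receptor of the 10 in each library. Its level was 1429 TPM in control 1, 1722 TPM in control 2, 951 TPM in CD95ko 1 and 405 TPM in CD95ko 2. The controls were highest, CD95ko 1 lay between, and CD95ko 2 was lowest. The group means were 1580 ± 207 TPM and 678 ± 386 TPM (SD, n = 2 in each), with a log2 difference of -1.34 ± 0.40 SE, lower in 4 of 4 pairs (limma unadjusted p = 0.00879, adjusted p = 0.194). Relative to both controls, the log2 difference was -1.95 in CD95ko 2 and -0.72 in CD95ko 1, in fits whose spread comes from the controls alone. Between the clones it was -1.23 ± 0.33 SE (limma adjusted p = 0.0761).

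**Figure D3:**
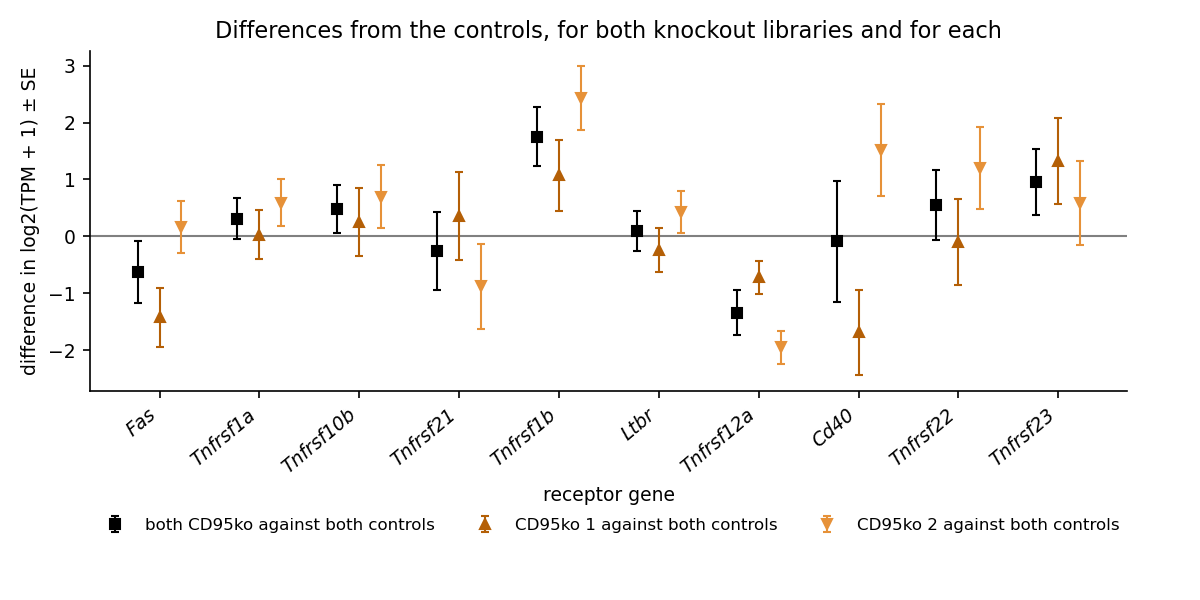
Difference from the controls in log2(TPM + 1) with its SE for each receptor, for both CD95ko libraries together (squares) and for CD95ko 1 (upward triangles) and CD95ko 2 (downward triangles) alone. Tnfrsf1b lies above 0 and Tnfrsf12a below 0 in all 3 comparisons, and for both genes the CD95ko 2 value, at 2.43 and -1.95, is farther from 0 than the CD95ko 1 value.

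Ltbr (chr6:125306571-125313885) encodes the lymphotoxin β receptor, which activates the alternative NF-κB pathway. It was at 99.0 and 85.4 TPM in the controls and at 77.5 and 123 TPM in the CD95ko libraries, with the clones on either side of the controls (log2 difference 0.09 ± 0.35 SE, limma adjusted p = 0.934). Cd40 (chr2:165055627-165072948), the receptor for CD40 ligand best known from antigen-presenting cells, was the least abundant of the 10 on average. It was at 4.72 TPM in control 1, 0.82 TPM in control 2 and 8.24 TPM in CD95ko 2, and was listed at 0 in CD95ko 1. The clones lay on either side of both controls (group difference -0.09 ± 1.06 SE, limma adjusted p = 0.979). Between the clones the log2 difference was 3.21 ± 0.92 SE (limma unadjusted p = 0.00306, adjusted p = 0.0972). Fas, Tnfrsf1b, Tnfrsf12a and Cd40 were the 4 of 10 receptors with an unadjusted limma p under 0.05 between the clones, beside 12.4% of tested genes. None of the 4 passed after adjustment.

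The make-up of receptor transcripts stood apart most in CD95ko 2. All 10 receptors summed to 1691 and 1945 TPM in the controls, 1176 TPM in CD95ko 1 and 803 TPM in CD95ko 2. Tnfrsf12a was 84.5% and 88.5% of that sum in the controls, 80.8% in CD95ko 1 and 50.5% in CD95ko 2. Without Tnfrsf12a the other 9 summed to 262, 223, 226 and 398 TPM in the same order, so CD95ko 2 had the lowest sum with Tnfrsf12a and the highest without it.

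**Figure D4:**
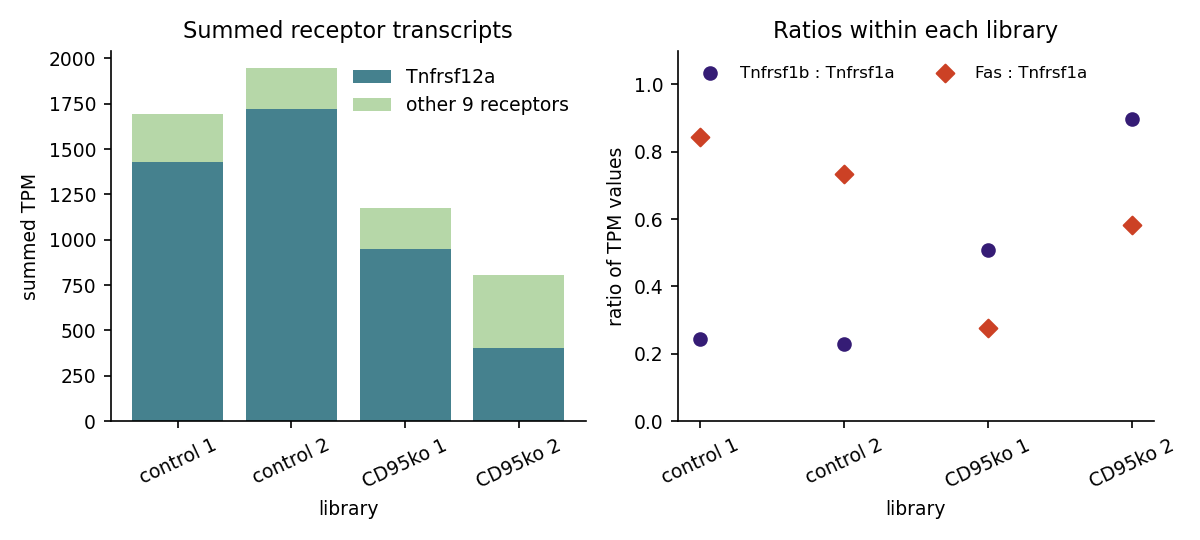
Left, summed TPM of the 10 receptors in each library, divided into Tnfrsf12a and the other 9. Right, the ratios of Tnfrsf1b and of Fas to Tnfrsf1a in each library: the Tnfrsf1b ratio is 0.245 and 0.23 in the controls and 0.509 and 0.896 in the CD95ko libraries, and the Fas ratio is lowest in CD95ko 1 at 0.276.

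Tnfrsf22 and Tnfrsf23 are neighbouring genes on chromosome 7 (chr7:143634806-143649661 and chr7:143665809-143685872, reverse strand) that encode decoy receptors for TRAIL. Their transcripts resemble each other: 29.2% of the 25-base stretches of Tnfrsf22 also occur in Tnfrsf23, and 30.5% of those of Tnfrsf23 occur in Tnfrsf22. Counting any other gene, the shares are 44.2% for Tnfrsf22 and 30.8% for Tnfrsf23, so part of Tnfrsf22 is shared outside the pair and a sum of both genes stays uncertain. The longest run shared by their coding sequences, 102 bases across an exon junction, is shown in capitals with 15 bases on each side (exonic bases within chr7:143638426-143640768 and chr7:143668582-143670848), because a read within it could come from either gene.
Tnfrsf22: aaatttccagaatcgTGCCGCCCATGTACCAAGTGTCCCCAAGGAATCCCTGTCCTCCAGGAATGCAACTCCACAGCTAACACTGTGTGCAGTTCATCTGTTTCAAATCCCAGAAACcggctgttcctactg
Tnfrsf23: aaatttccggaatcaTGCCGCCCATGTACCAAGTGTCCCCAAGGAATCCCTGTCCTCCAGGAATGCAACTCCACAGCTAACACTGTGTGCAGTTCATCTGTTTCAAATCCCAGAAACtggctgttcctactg
RSEM, which the submitters' processing notes name, divides reads that fit several genes by estimated probability. The settings used are not given in the sources used here, and the value of each gene is uncertain for that reason. Exons of Tnfrsf23 also overlap those of E230032D23Rik on the opposite strand, and the labels do not say whether reads were assigned by strand.

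Tnfrsf22 was at 8.07 and 5.07 TPM in the controls, 5.91 TPM in CD95ko 1 and 16.1 TPM in CD95ko 2, so CD95ko 2 was highest and the rest overlapped (log2 difference 0.55 ± 0.62 SE, limma adjusted p = 0.714). Tnfrsf23 was at 3.6 and 4.27 TPM in the controls, 11.3 TPM in CD95ko 1 and 6.4 TPM in CD95ko 2. Both CD95ko libraries lay above both controls for Tnfrsf23, and the higher clone was the one that was lower for Tnfrsf22 (0.95 ± 0.58 SE, limma adjusted p = 0.472). Summed over the 2 genes, the level was 11.7 and 9.34 TPM in the controls and 17.2 and 22.5 TPM in the CD95ko libraries, with no overlap (10.5 ± 1.65 and 19.8 ± 3.74 TPM, SD, n = 2 in each). The sum was chosen after the values were seen, and Tnfrsf22 alone overlapped between the groups. Among single tested genes 29.2% were higher without overlap, and no such share was counted for sums of 2 genes. For a single value in 2 against 2 libraries the smallest two-sided exact permutation p is 0.333. Tnfrsf26, the third gene of that cluster, was at 1.21 and 2.65 TPM in the controls, 20.8 TPM in CD95ko 1 and 2.23 TPM in CD95ko 2, high in 1 library.

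Ordered by the mean of the 4 libraries, the levels ran from Tnfrsf12a (1130 TPM) through Ltbr (96.2 TPM), Tnfrsf1a (63.4 TPM), Fas (38.5 TPM), Tnfrsf1b (32.9 TPM), Tnfrsf10b (23.6 TPM), Tnfrsf22 (8.78 TPM), Tnfrsf23 (6.38 TPM) and Tnfrsf21 (4.05 TPM) to Cd40 (3.45 TPM). The ranges of neighbours in this order were free of overlap at 3 places, below Tnfrsf12a, below Tnfrsf1a and below Tnfrsf10b. Fas and Tnfrsf1b changed places: Fas was above Tnfrsf1b in both controls and below it in both CD95ko libraries. Among all tested genes, Tnfrsf12a stood between percentile 96.9 and 99.1 of level. Fas stood at percentile 71.1 in both controls, 39.3 in CD95ko 1 and 72.5 in CD95ko 2, and Tnfrsf1b at 37.9 and 43.1 in the controls, 56.8 in CD95ko 1 and 81.3 in CD95ko 2. Ltbr and Tnfrsf1a were the steadiest members, with a highest to lowest ratio over the libraries of 1.59 and 1.58, and Tnfrsf1b had the widest ratio among those above 0 in all 4 libraries, 6.17.

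The genes whose pattern over the 4 libraries was most like that of Fas were Tbrg1, Schip1 and Pdgfb, out of 7842 tested genes with a mean of at least 10 TPM. Likeness was the distance between log2(TPM + 1) profiles, each centred on its own mean, and was 0.193, 0.22 and 0.288. Tbrg1 was at 454 and 405 TPM in the controls, 168 TPM in CD95ko 1 and 549 TPM in CD95ko 2. Schip1 was at 46.4 and 34.0 TPM in the controls, 16.9 TPM in CD95ko 1 and 44.5 TPM in CD95ko 2. Pdgfb, which encodes a platelet-derived growth factor chain, was at 108 and 67.0 TPM in the controls, 32.3 TPM in CD95ko 1 and 86.8 TPM in CD95ko 2. All 3 were lowest in CD95ko 1, which is what the measure of likeness selects for. Of the other receptors with such a mean, Ltbr came closest to Fas, at a distance of 0.975 and rank 461.

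Most other receptors of the superfamily were at or near 0 in these cells. Of 18 listed, 9 were at 0 in all 4 libraries and 5 were tested, none with an unadjusted limma p under 0.05 (2 without CD95ko 1 and 2 without CD95ko 2). The highest single values were 20.8 TPM for Tnfrsf26 in CD95ko 1 and 12.8 TPM for Relt in control 1. The other 3 tested, Tnfrsf9, Tnfrsf14 and Ngfr, stayed at or below 5.8 TPM. Tnfrsf18, which was not tested, was at 6.9 TPM in CD95ko 1 and listed at 0 in the other libraries.

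Most ligands of the family were also scarce. Of 18 listed, 10 were at 0 in all 4 libraries, among them Fasl, the ligand of CD95, Tnfsf12, which encodes TWEAK, and Cd40lg. Tnfsf10, which encodes TRAIL, was at 0.24 TPM in control 1 and listed at 0 in the others, and Tnf itself was between 0 and 2.34 TPM. Tnfsf9 was present in all 4 libraries, at 10.5 and 8.08 TPM in the controls and 16.7 and 5.83 TPM in the CD95ko libraries (limma adjusted p = 0.957). Of the 3 tested, Tnfsf13, which encodes the B-cell cytokine APRIL, had an unadjusted p under 0.05, a count of 1 that was 0 without either control and 2 without CD95ko 2. It was at 1.49 TPM in control 1, listed at 0 in control 2, at 5.95 TPM in CD95ko 1 and at 80.4 TPM in CD95ko 2 (limma unadjusted p = 0.00518, adjusted p = 0.166), so it was high in CD95ko 2 alone. Its value is uncertain, since 58.8% of its 25-base stretches also occur in the overlapping read-through gene Tnfsfm13, which was listed at 0 in 3 libraries and at 1.42 TPM in CD95ko 1.

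Downstream of the receptors, 37 of 38 listed adaptors, caspases, ubiquitin regulators and NF-κB genes were tested, and 9 had an unadjusted limma p under 0.05, 8 lower and 1 higher, beside 5.68% of tested genes lower and 9.25% higher (8.01% and 8.66% under quantile normalization). The list was chosen with earlier results known, so these counts are a description. None passed after adjustment over all genes, and the median log2 difference of the list was -0.15. Relb, the NF-κB subunit of the alternative pathway, was at 122 and 118 TPM in the controls and 29.5 and 21.6 TPM in the CD95ko libraries (-2.20 ± 0.36 SE, limma adjusted p = 0.0676). Nfkb2, which encodes its partner p100, was at 355 and 342 TPM in the controls and 161 and 136 TPM in the CD95ko libraries (-1.23 ± 0.29 SE, limma adjusted p = 0.144). Relb and Nfkb2 were named for their small p-values, so a wide gap between the groups follows from that choice. Both were lower without overlap, as 18.3% of tested genes were. Nfkb2 shares exonic bases with 2 genes on the opposite strand.

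Nfkbia, the NF-κB inhibitor IκBα, was at 435 and 535 TPM in the controls and 112 and 251 TPM in the CD95ko libraries (limma adjusted p = 0.16). Birc3, the ubiquitin ligase cIAP2 that binds TRAF2 at TNF receptors, was at 24.8 and 27.2 TPM in the controls and 2.26 and 4.73 TPM in the CD95ko libraries (limma adjusted p = 0.114). Both genes were lower without overlap between the groups, as 18.3% of tested genes were. Of the 25-base stretches of Birc3, 13.3% also occur in other genes. Tradd, the adaptor of TNFR1, was the gene with an unadjusted p under 0.05 and higher values. It was at 26.7 and 20.2 TPM in the controls and 62.1 and 79.0 TPM in the CD95ko libraries (limma adjusted p = 0.147). The adaptor of CD95 itself, Fadd, was at 21.3 and 12.8 TPM in the controls and 5.53 and 4.62 TPM in the CD95ko libraries (limma unadjusted p = 0.0183, adjusted p = 0.24). Casp8, which FADD recruits, was at 54.5 and 30.6 TPM in the controls and 45.3 and 38.8 TPM in the CD95ko libraries, inside the range of the controls (limma adjusted p = 0.979). Fadd and Casp8 fell outside the rule for named genes and were added after their values were seen, because they belong to the signalling complex of CD95.

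**Figure D5:**
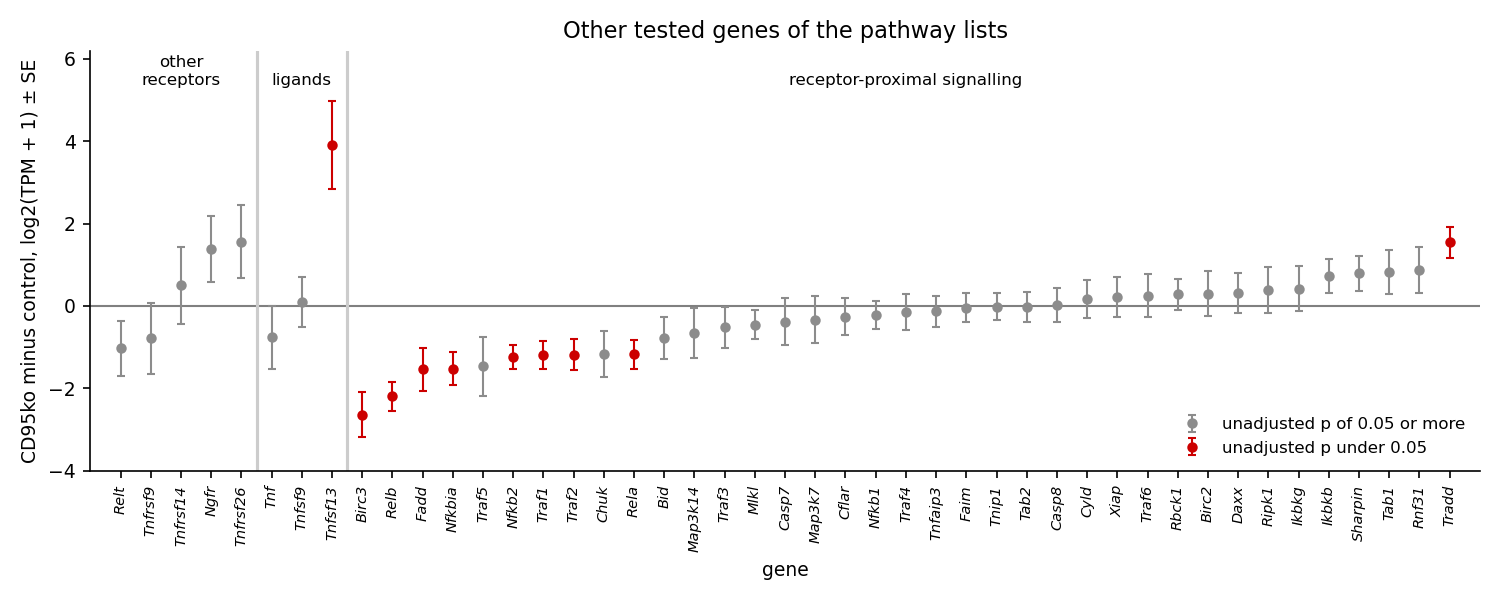
Difference between the groups in log2(TPM + 1), CD95ko minus control, with its SE for the tested genes of the lists of other receptors, ligands and receptor-proximal signalling, in order of size within each list. Red marks an unadjusted limma p under 0.05, reached by 1 ligand and 9 signalling genes; none of the genes shown passed after adjustment over all tested genes.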

How the data were processed

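RNA-seq of oligo(dT)-selected, fragmented RNA from 4 libraries was used. The deposited values are TPM, per the file headers, and each of the authors' columns sums to between 999999.67 and 1000000.1. STAR 2.6.0, RSEM 1.3.0 and mm10 are named in the submitters' processing notes, while settings, annotation and strand are not given in the sources used here. Groups and replicate numbers came from the titles.

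Genes were kept if 2 or more libraries had 1 TPM or more, and were transformed to log2(TPM + 1) and compared with limma 3.58.1 in R 4.3.3 (eBayes with trend, two-sided, Benjamini-Hochberg adjustment over 11167 genes, threshold 0.05). Differences on that scale understate the change of weakly expressed genes. TPM carries no depth, so no counting interval or floor is given. Gene positions, transcripts and stretches of 25 bases shared between genes came from GENCODE M21 (GRCm38).

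The receptors and lists were chosen with earlier results of these data known. All 10 receptors are reported, and 1 gene of the signalling list is not reported here and is left out of its counts. From each list the genes with an unadjusted p under 0.05 were named, at most 4 in each direction by smallest p, and the 3 genes nearest to Fas in pattern. The comparison of the 2 clones, with the spread taken from the controls, and the sum of Tnfrsf22 and Tnfrsf23 were chosen after seeing the data. Alternatives were quantile normalization, a pseudocount of 0.1, no filter, a mean of at least 5 TPM, no variance trend, robust eBayes, the replicate number as a block, and leaving out each library.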

Additional observations from a re-analysis of the deposited data

How the results depend on the processing

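With all 4 libraries, each receptor kept its direction and stayed short of an adjusted p of 0.05 in limma in all 68 values over 7 alternative settings, in which Tnfrsf21 and Cd40 had no value at a mean of at least 5 TPM. The Fas difference ranged from -0.79 to -0.63, Tnfrsf1b from 1.56 to 1.82 (adjusted p 0.14 to 0.299) and Tnfrsf12a from -1.34 to -1.32 (adjusted p 0.143 to 0.351). The genes past the threshold, 6 in number as reported, numbered 0 under quantile normalization, a pseudocount of 0.1, no filter and no variance trend, 55 at a mean of at least 5 TPM and 52 under robust eBayes; the cause was not tested. Deviations from the group mean in control 1 and CD95ko 1 had a correlation of -0.081 across genes. A single correlation between different lines cannot decide whether the same replicate number marks paired libraries. With that number as a replicate block 2 genes and 0 receptors passed. One receptor, Tnfrsf1b, was over 2-fold apart in all pairs at a pseudocount of 0.1, against 0 as reported. The share of all tested genes over 2-fold apart was not counted at that pseudocount, so this count has no background beside it.

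Leaving out 1 library assumes that the lone library of a group varies as the others do. Genes past the threshold then ran from 0 to 1034, receptors past it from 0 to 2, receptors at an unadjusted p under 0.05 from 0 to 3 of 10 (3 without CD95ko 2, beside 12.2% of tested genes, and 2 without CD95ko 1, beside 24.3%), and receptors over 2-fold apart from 0 to 2 (2 without either CD95ko library and 1 without control 1). With fewer pairs left, the 5.49% of tested genes over 2-fold apart in all 4 pairs does not apply to these 2-fold counts. The share of tested genes over 2-fold apart was not counted in these settings. The counts of ligands, other receptors and signalling genes at an unadjusted p under 0.05 also moved, as did the share of all tested genes. Fas ran from -1.42 to 0.16 and was positive without CD95ko 1. Directions also turned for Cd40 (-1.69 to 1.52, positive without CD95ko 1 and 0.74 without control 1), Ltbr (-0.24 to 0.42, -0.24 without CD95ko 2 and -0.02 without control 2), Tnfrsf21 (-0.88 to 0.36, 0.36 without CD95ko 2 and 0.16 without control 1) and Tnfrsf22 (-0.10 to 1.20, -0.10 without CD95ko 2). Tnfrsf1b ran from 1.07 to 2.43 and Tnfrsf12a from -1.95 to -0.72. With depth unknown, a value listed at 0 sets no limit on the level.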
